A study of Homo sapiens with 6 samples.

Results

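The genes described here are 34 genes of homologous recombination and DNA damage signalling, a list of named genes grouped here by what they encode. A gene was measured where a probe set (a group of short oligonucleotides against 1 transcript) carried its symbol and no other, and the brightest such probe set over the 6 arrays stood for the gene. By that rule 30 of the 34 members had a value, among 19775 genes in all. BRCA2, FANCA, FANCD2 and RBBP8 were not matched to such a probe set and are not analysed here. All 30 were among the 12735 genes tested, since each exceeded the 50th percentile of all probe sets on 2 or more arrays. On all 6 arrays 29 of them did so, and XRCC3 on 4.

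The cells were RT-112, a human bladder cancer line grown in culture, and the study compared cells given a scramble siRNA with cells given either of 2 siRNAs against PPP2R2A, called siRNA 1 and siRNA 2 here. Each siRNA was used at 50 nM with Lipofectamine RNAiMAX on freshly plated cells, the transfection was repeated after 24 h, and RNA was taken a further 24 h later. All 3 groups thus carried an siRNA and the transfection reagent. There were 2 arrays, A and B, in each group, described as technical duplicates of 1 cell line, so the p-values below measure only the spread between these arrays. Transcript levels are signal intensities on a linear scale, and differences are on the log2(signal + 1) scale.

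Homologous recombination repairs a broken chromosome by copying the intact sister DNA. The MRE11, RAD50 and NBN complex senses the break and activates the kinase ATM, nucleases trim the ends, RPA coats the exposed single strand, and mediators such as the BRCA1 and PALB2 proteins guide the search for the matching strand. ATM and ATR pass the signal to CHEK2 and CHEK1, which halt the cell cycle. PPP2R2A encodes the B55alpha regulatory subunit of protein phosphatase 2A, a phosphatase known to act on ATM. The arrays measured RNA, not phosphorylation.

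PPP2R2A itself gave signals of 1381 and 1589 on the scramble arrays, 336 and 397 with siRNA 1, and 510.0 and 533 with siRNA 2. It fell by 2.02 and 1.51 on the log2 scale (limma, adjusted p = 0.0403 and 0.0461), and with other settings of the analysis that call was lost in 9 and 11 of 15, with adjusted p between 5.56e-05 and 0.183 and between 0.000174 and 0.196. The difference itself stayed between -2.14 and -1.42 with siRNA 1 and between -1.61 and -1.09 with siRNA 2 under those settings. Median signals of the arrays lay between 69.3 and 76.2. The ratio of the 3' to the 5' ACTB control probe sets was 5.43 to 5.94 with scramble, 6.52 to 7.82 with siRNA 1 and 7.47 to 12.4 with siRNA 2. Of 15 urothelial and epithelial markers 11 were above the median on all 6 arrays and UPK3A on 0, and their summed signal was 141977 to 146800 with scramble, 140134 to 144991 with siRNA 1 and 120899 to 128136 with siRNA 2. Of 13 markers of other cell types with a probe set, COL1A1, LUM, PECAM1 and CDH5 were above the median on all 6 arrays, and 6 (COL1A2, COL3A1, PDGFRB, PTPRC, CD14 and LYZ) on 0. Their sums were 6488 to 6699, 7122 to 8024 and 6140 to 6170 in the same order. LUM alone gave 4975 and 4715 of the scramble sums, 6351 and 5518 with siRNA 1 and 4546 and 4519.9 with siRNA 2. The ACTB ratio was higher with both siRNAs. The GAPDH ratio was 1.004 on each scramble array, 1.001 and 1.02 with siRNA 1, and 1.002 and 0.943 with siRNA 2. The lowest was on siRNA 2 array B, which also had the ACTB ratio of 12.4. The epithelial sum was lower with siRNA 2 and overlapped scramble with siRNA 1. The other sum was higher with siRNA 1 and lower with siRNA 2. The part of these ratios and sums in the members' values was not tested. In cultures measured in bulk, fewer cells of a type and less RNA per cell cannot be told apart.

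Promoters of 29 of the 34 members were found in the RefSeq promoter table (GRCh38.p14), and the 250 bases before each start were searched on both strands for CCAAT, a common promoter element bound by NF-Y, whose reverse complement is ATTGG. It was present for 17 of the 29 (58.6%), against 6369 of 15843 coding genes (40.2%). A group of 4 E2F letter forms (TTTCCCGC, TTTGGCGC, TTTCGCGC and TTTGCCGC) was present for 1 of 29 members (3.45%), against 4.6% of coding genes. That member was FANCA, which is also among the 17 with CCAAT and was not measured here. FANCI, NBN, RAD54B, RPA2 and RPA3 had no window in the table. A match says only that these letters are present. The windows of ATM, FANCM and RAD51AP1 are shown because their values are among those the results turn on, with CCAAT or ATTGG in capitals.
ATM, chr11:108222817-108223066, + strand: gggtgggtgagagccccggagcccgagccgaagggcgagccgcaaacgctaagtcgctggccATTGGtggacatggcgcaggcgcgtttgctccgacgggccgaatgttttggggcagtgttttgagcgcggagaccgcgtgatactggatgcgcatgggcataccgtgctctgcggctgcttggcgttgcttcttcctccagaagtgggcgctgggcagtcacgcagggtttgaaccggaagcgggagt
FANCM, chr14:45135680-45135929, + strand: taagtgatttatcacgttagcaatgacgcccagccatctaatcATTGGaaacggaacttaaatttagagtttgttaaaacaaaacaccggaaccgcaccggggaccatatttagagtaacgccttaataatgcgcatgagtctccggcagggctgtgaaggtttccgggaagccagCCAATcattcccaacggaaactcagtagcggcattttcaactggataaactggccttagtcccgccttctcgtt
RAD51AP1, chr12:4538640-4538889, + strand: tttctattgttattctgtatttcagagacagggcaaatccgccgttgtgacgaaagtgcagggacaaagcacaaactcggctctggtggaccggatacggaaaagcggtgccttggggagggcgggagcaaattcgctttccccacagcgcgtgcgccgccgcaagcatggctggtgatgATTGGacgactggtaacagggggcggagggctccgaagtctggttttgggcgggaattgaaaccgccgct

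No member was called with either siRNA, where a call is an adjusted p under 0.05 in limma (Benjamini-Hochberg over all 12735 genes) and a change of at least 1.5-fold. With siRNA 1, 0 of 30 members were called beside 0.393% of all genes tested, and with siRNA 2, 0 of 30 beside 0.597%. Between the siRNAs, 0 of 30 were called beside 0.212%. The largest differences were 1.26-fold with siRNA 1 (MRE11), 1.29-fold with siRNA 2 (RAD52) and 1.34-fold between the siRNAs (ATM). The smallest adjusted p in each comparison was 0.227 for FANCM, 0.155 for RPA2 and 0.137 for ATM.

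At an unadjusted limma p under 0.05 there were 4 members with siRNA 1, all at lower signals (ATM, MRE11, EXO1 and FANCM). They make 13.3% of the members beside 16.2% of all genes. With siRNA 2 there were 5 (16.7%, beside 20.8% of all genes), of which BARD1, FANCI and RPA2 were at higher and RAD51AP1 and FANCM at lower signals. Between the siRNAs there were 5 (16.7%, beside 18.7%), ATM, BARD1, MRE11, FANCI and RPA3, each at lower signals with siRNA 1. These shares lie near or under those of all genes. With each array centred on its median the 3 counts were 0, 1 and 2 (0%, 3.33% and 6.67%), and the shares of all genes were lower too, at 11.1%, 15% and 13.3%. Without 1 array they ran from 0 to 4 with siRNA 1, the 0 coming without scramble array A or siRNA 1 array B. With siRNA 2 they ran from 0 to 3, the 0 coming without either scramble array. Between the siRNAs they ran from 2 to 5, the 2 coming without siRNA 1 array B or either siRNA 2 array.

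Both arrays of a knockdown lay beyond both scramble arrays for 14 members with siRNA 1 (46.7%), 1 above and 13 below, where all genes gave 49.4%. With siRNA 2 it was 19 members (63.3%), 10 above and 9 below, beside 52.4% of all genes. Between the siRNAs the groups did not overlap for 15 members (50%), 3 higher and 12 lower with siRNA 1, beside 50.7%. The 2 siRNA comparisons share the scramble arrays, so the values of each are given side by side and agreement between them is not used. Both siRNAs lay beyond scramble the same way for 6 of 30 members, EXO1, XRCC2, RAD52, RAD51AP1, FANCM and RPA1. Among all genes tested 3226 (25.3%) did so, so the pattern does not set these members apart.

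**Figure D1:**
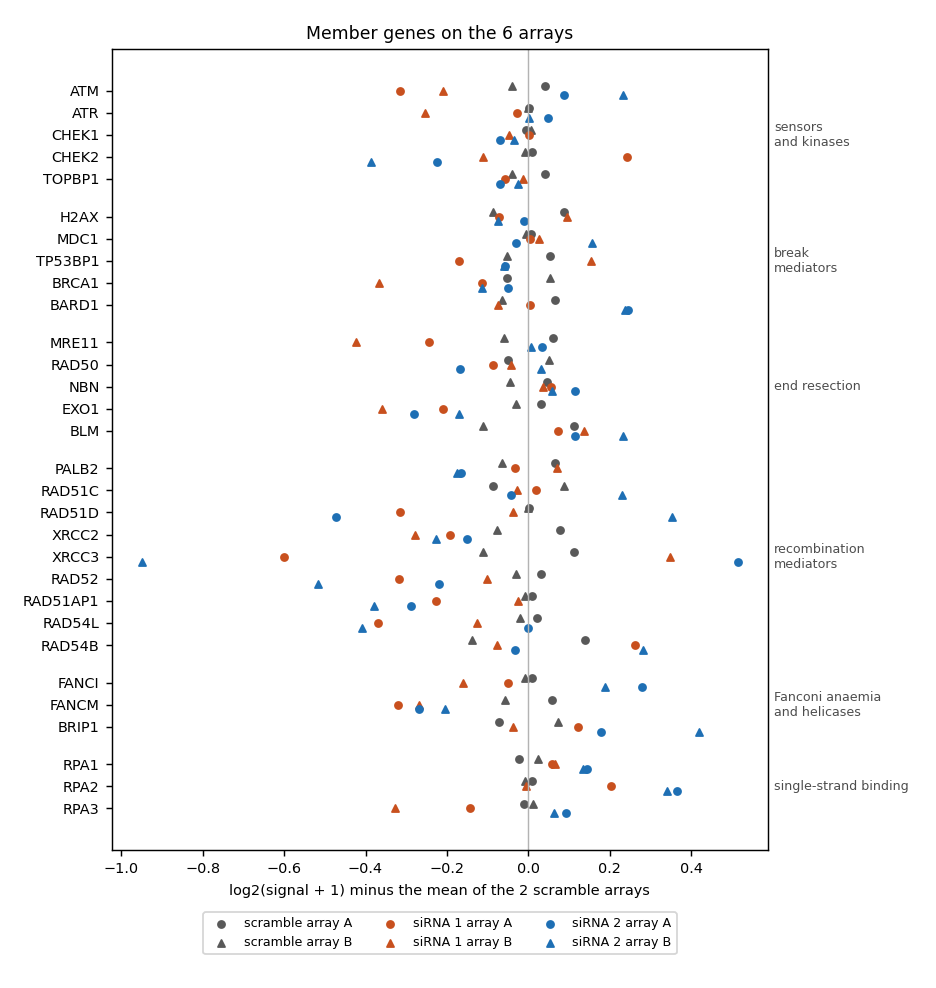
The signal of each of the 30 measured members on each array, as log2(signal + 1) minus the mean of the 2 scramble arrays (x axis), grouped by role (y axis), with circles for array A and triangles for array B. Points of most members stay near 0, while XRCC3 spreads widest, 58.8 to 114 within siRNA 1 and 46.0 to 128 within siRNA 2.

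Among the sensors and kinases, ATM, the kinase that answers double-strand breaks, gave signals of 825 and 779 on the scramble arrays, 644 and 693 for siRNA 1 and 852 and 942 for siRNA 2. Both siRNA 1 arrays were below and both siRNA 2 arrays above the scramble arrays. Its log2 difference was -0.26 (95% interval -0.51 to -0.01, limma adjusted p = 0.296) with siRNA 1 and 0.16 (-0.09 to 0.41, adjusted p = 0.422) with siRNA 2. Between the siRNAs it was -0.42 (-0.68 to -0.17, adjusted p = 0.137). ATR, the kinase of stalled forks and RPA-coated DNA, gave 3419 and 3412, then 3352 and 2866 for siRNA 1 and 3532 and 3421 for siRNA 2. The order of the groups was that of ATM, with differences of -0.14 (adjusted p = 0.574) and 0.03 (adjusted p = 0.918), although the lower siRNA 2 array lay only just above the higher scramble array.

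CHEK1, the effector kinase of ATR, had some of the closest values of any member, 1711 and 1726 on the scramble arrays, 1719 and 1662 for siRNA 1 and 1639 and 1677 for siRNA 2. Its differences were -0.02 (95% interval -0.22 to 0.17, adjusted p = 0.905) and -0.05 (-0.25 to 0.14, adjusted p = 0.743), so a 1.5-fold difference (0.58 on the log2 scale) lies outside both intervals of this probe set. CHEK2, the effector kinase of ATM, gave 435 and 430.1, then 511 and 400.4 for siRNA 1 and 370.1 and 331 for siRNA 2. The siRNA 1 arrays lay on either side of scramble and both siRNA 2 arrays below it. The differences were 0.06 (adjusted p = 0.864) and -0.31 (-0.69 to 0.08, adjusted p = 0.325). Between the siRNAs CHEK2 had the highest difference of any member, 0.37 (adjusted p = 0.278). TOPBP1, which activates ATR, differed by -0.04 and -0.05, with overlapping arrays. Over the 5 genes of this role the median was -0.04 with siRNA 1 and -0.05 with siRNA 2.

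The mediators that gather at a break include H2AX, the histone variant that ATM phosphorylates around it. Its signals were 5595 and 4965 on the scramble arrays, 5009 and 5631 for siRNA 1 and 5229.9 and 5006 for siRNA 2. The groups overlapped fully, and the differences were 0.01 (95% interval -0.27 to 0.30, limma adjusted p = 0.972) and -0.04 (-0.33 to 0.24, adjusted p = 0.862). MDC1 and TP53BP1, which bind near the phosphorylated histone, differed by 0.02 and -0.01 with siRNA 1 and by 0.06 and -0.06 with siRNA 2.

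BRCA1, the ubiquitin ligase that promotes resection and recombination, gave 2999 and 3222 on the scramble arrays, 2870.3 and 2411 for siRNA 1 and 3004 and 2870.5 for siRNA 2. Both siRNA 1 arrays were below scramble, and the siRNA 2 arrays overlapped it. The differences were -0.24 (-0.55 to 0.06, limma adjusted p = 0.401) and -0.08 (adjusted p = 0.740). BARD1, the partner that BRCA1 needs as a ligase, gave 2194 and 2001, then 2102 and 1989.7 for siRNA 1 and 2482 and 2469 for siRNA 2. For this probe set only the siRNA 2 arrays stood apart from scramble, both above it, at 0.24 (0.01 to 0.47, adjusted p = 0.226). Its other probe sets above the filter were at -0.20 and -0.43 with siRNA 1 and at 0.20 and -0.09 with siRNA 2. The dimmer of them gave 314 and 332 with scramble and 260 and 220 with siRNA 1. Between the siRNAs BARD1 differed by -0.28 (adjusted p = 0.213), and its other probe sets by -0.40 and -0.34. The median over the 5 mediators was -0.01 with siRNA 1 and -0.04 with siRNA 2.

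In end resection, the nuclease MRE11 gave 1959 and 1799 on the scramble arrays, 1586 and 1400.2 for siRNA 1 and 1921 and 1885 for siRNA 2. The siRNA 1 arrays were the lowest and the siRNA 2 arrays lay between those of scramble. Its difference of -0.33 with siRNA 1 (95% interval -0.60 to -0.07, limma adjusted p = 0.239) was the lowest of any member, against 0.02 (adjusted p = 0.935) with siRNA 2. Between the siRNAs it was -0.35 (adjusted p = 0.187). By their brightest probe sets, the other proteins of its complex differed less than MRE11 with siRNA 1. RAD50, the scaffold, was at -0.07 and -0.07, and NBN, the subunit that recruits ATM, at 0.05 and 0.09. Other RAD50 probe sets above the filter were at 0.04 and 0.33 with siRNA 1 and at -0.05 and 0.34 with siRNA 2. The second of these was dim, at 145 and 173 with scramble.

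EXO1, the exonuclease of long-range resection, gave 1255 and 1204 on the scramble arrays, 1062 and 958 for siRNA 1 and 1011 and 1093 for siRNA 2. All 4 knockdown arrays were below both scramble arrays. The differences were -0.29 (-0.54 to -0.03, limma adjusted p = 0.271) and -0.23 (-0.48 to 0.03, adjusted p = 0.281). BLM, the helicase that also unwinds ends for resection, had the highest difference with siRNA 1, at 0.10, and 0.17 with siRNA 2. For the 5 resection genes the median was -0.07 and 0.02.

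Of the 9 recombination mediators measured, 7 were below 0 with siRNA 1 and 7 with siRNA 2, at medians of -0.13 and -0.19, and none was called. Both counts were also 7 after quantile normalization and after centring each array, and lay between 6 and 8 under the other settings. RAD51AP1, which stimulates strand pairing, gave 4555 and 4496 on the scramble arrays, 3865 and 4443 for siRNA 1 and 3702 and 3482 for siRNA 2. All 4 knockdown arrays were below scramble, array B of siRNA 1 by little. The differences were -0.13 (limma adjusted p = 0.602) and -0.33 (95% interval -0.60 to -0.07, adjusted p = 0.173).

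RAD52, an annealing protein, was dimmer, at 197 and 189 on the scramble arrays, 155 and 179.8 for siRNA 1 and 166 and 135 for siRNA 2. Again no knockdown array reached scramble. The differences were -0.21 (limma adjusted p = 0.535) and -0.37 (-0.74 to 0.00, adjusted p = 0.242), the second being the lowest of any member with siRNA 2. RAD54L, a motor that remodels the joint molecule, gave 635 and 617, then 484 and 574 for siRNA 1 and 625 and 471 for siRNA 2. The siRNA 1 arrays were below scramble, while array A of siRNA 2 lay between the scramble arrays and array B below them. Its differences were -0.25 (adjusted p = 0.546) and -0.21 (adjusted p = 0.559).

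Of the remaining mediators, PALB2, the link between the BRCA proteins, differed by 0.02 and -0.17, and XRCC2, a recombination mediator, by -0.24 and -0.19 with both siRNAs' arrays below scramble. RAD51C and RAD51D, which act in complexes with the XRCC proteins, differed by 0.00 and 0.09 and by -0.18 and -0.06, and RAD54B, a relative of RAD54L, by 0.09 and 0.12. XRCC3, the dimmest member, had signals of 97.0 and 83.0, then 58.8 and 114, and 128 and 46.0. Its duplicates differed by 0.95 with siRNA 1 and by 1.46 with siRNA 2 on the log2 scale, so its interval with siRNA 1 ran from -1.64 to 1.38.

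Among the Fanconi anaemia proteins and helicases, FANCM, a translocase that remodels stalled forks, was the member under the unadjusted threshold in both comparisons. Its signals were 306 and 283 on the scramble arrays, 236 and 244 for siRNA 1 and 244 and 255 for siRNA 2. All 4 knockdown arrays were below scramble, with differences of -0.29 (95% interval -0.52 to -0.07, limma adjusted p = 0.227) and -0.24 (-0.46 to -0.01, adjusted p = 0.222). The sign with siRNA 2 was turned when the probe set was chosen in other ways, to 0.34 as a mean over its probe sets and to 0.01 with the brightest one without the suffix of probe sets that may bind related transcripts. That mean takes in a probe set above the median on 0 arrays, at 1.54 with siRNA 2. Its signals were 5.97 and 17.3 with scramble and 35.3 and 28.4 with siRNA 2. The probe sets above the filter, beside the brightest, were at 0.06 and 0.01 with siRNA 2. In the same order they were at 0.27 and -0.34 with siRNA 1, so the sign with siRNA 1 also differed by probe set. The first gave 139 and 132 with scramble and 167 and 161 with siRNA 1.

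FANCI, part of the clamp loaded at crosslinks, gave 6398 and 6316 on the scramble arrays, 6137 and 5684 for siRNA 1 and 7709.96 and 7244 for siRNA 2. The siRNA 1 arrays were below and the siRNA 2 arrays above scramble. The differences were -0.11 (limma adjusted p = 0.606) and 0.23 (0.01 to 0.46, adjusted p = 0.229), and between the siRNAs -0.34 (-0.57 to -0.11, adjusted p = 0.162). BRIP1, a helicase that binds BRCA1, gave 1316 and 1453, then 1505 and 1346 for siRNA 1 and 1565 and 1849 for siRNA 2. It overlapped scramble with siRNA 1 and lay above it with siRNA 2, at 0.04 (adjusted p = 0.903) and 0.30 (-0.04 to 0.63, adjusted p = 0.281).

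RPA, the trimer that coats single-stranded DNA, had its 3 subunits above 0 with siRNA 2, at a median of 0.14, and 2 of 3 above 0 with siRNA 1. With siRNA 2, RPA1 was at -0.02 as a mean over its probe sets. RPA2, the subunit phosphorylated in the damage response, gave 1426 and 1409.8 on the scramble arrays, 1631 and 1410.9 for siRNA 1 and 1825 and 1795 for siRNA 2. The siRNA 2 arrays were the highest, and array B of siRNA 1 was close to scramble. Its difference with siRNA 2 was the highest of any member there, 0.35 (95% interval 0.09 to 0.61, limma adjusted p = 0.155), against 0.10 (adjusted p = 0.689) with siRNA 1.

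RPA3, the small subunit, gave 9447 and 9603 on the scramble arrays, 8628 and 7589 for siRNA 1 and 10148 and 9945 for siRNA 2. Its arrays lay below scramble with siRNA 1 and above it with siRNA 2, with differences of -0.24 (limma adjusted p = 0.327) and 0.08 (adjusted p = 0.70). Between the siRNAs RPA3 differed by -0.31 (adjusted p = 0.199). RPA1, the large subunit, was the 1 member with both siRNA 1 arrays above scramble, at 0.06, and it was 0.14 with siRNA 2.

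**Figure D2:**
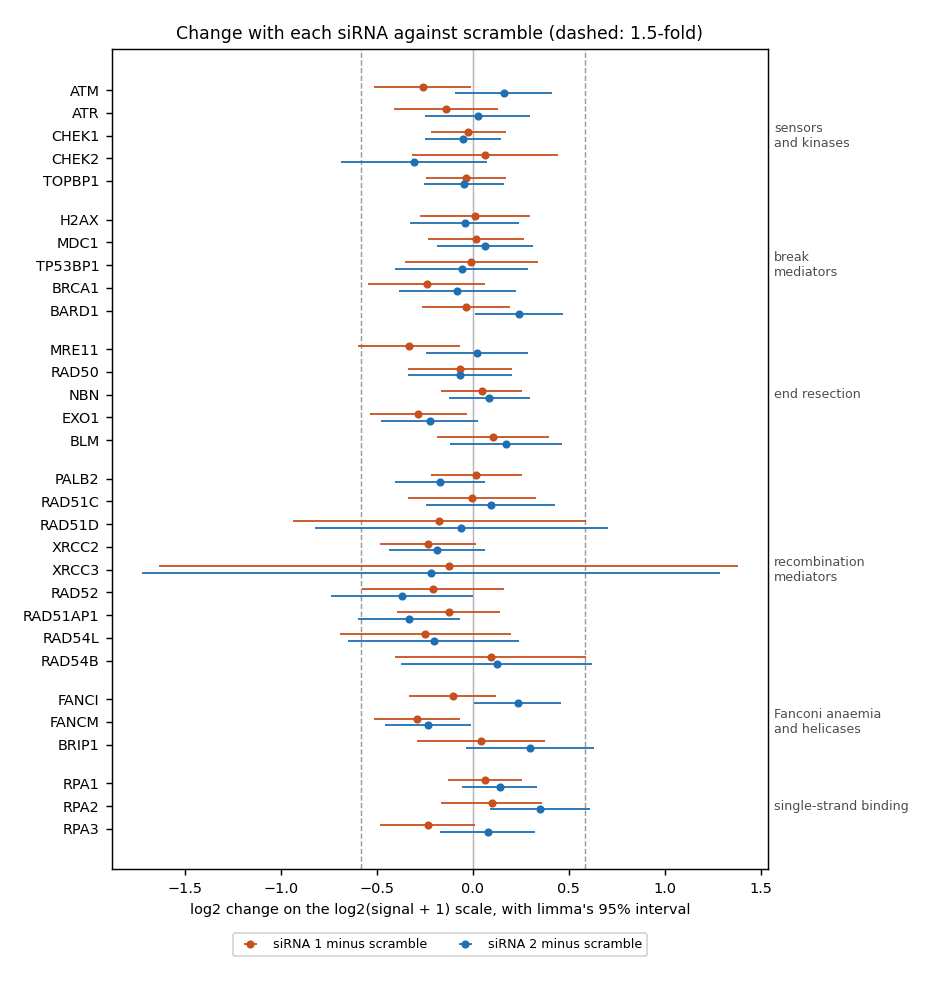
The log2 difference of each measured member from scramble (x axis) with its 95% limma interval, for siRNA 1 and siRNA 2, grouped by role (y axis), with lines at a 1.5-fold change. No member's point estimate passes those lines, while the intervals of 5 members with siRNA 1 and 9 with siRNA 2 reach them, and XRCC3 has the widest interval, -1.64 to 1.38 with siRNA 1.

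Over the 30 members the median difference was -0.05 with siRNA 1, -0.05 with siRNA 2 and -0.05 between the siRNAs, where all genes tested had medians of 0.01, 0.02 and -0.01. The siRNA 2 median was above 0 without scramble array A (0.00077), without siRNA 2 array A (0.0039) and with the mean of probe sets (0.0124), and the median between the siRNAs ran from -0.106 without siRNA 2 array A to -0.018 without siRNA 2 array B. With siRNA 1, 20 of 30 members were below 0, with siRNA 2 16, and between the siRNAs 20, beside 47.8%, 47.6% and 51.2% of all genes. The median size of the difference, whatever its sign, was 0.10, 0.15 and 0.09 for the members and 0.16, 0.19 and 0.18 for all genes. Members were spread from -0.33 to 0.10 for siRNA 1 and from -0.37 to 0.35 for siRNA 2, where the middle 90% of all genes ran from -0.51 to 0.60 and from -0.57 to 0.64.

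The duplicates of a member differed by a median of 0.09 with scramble, 0.16 with siRNA 1 and 0.08 with siRNA 2, beside 0.14, 0.14 and 0.15 for all genes. The 95% interval of a member reached a median of 0.27 to each side, from 0.19 at the narrowest to 1.51 for XRCC3, against 0.33 for all genes. It lay within a 1.5-fold change in both directions for 25 members with siRNA 1 (83.3%, beside 55.7% of all genes), for 21 with siRNA 2 (70%, beside 52.8%) and for 24 between the siRNAs (80%, beside 53.9%). For the remaining 5, 9 and 6 members a 1.5-fold difference could not be set aside at this precision.

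**Figure D3:**
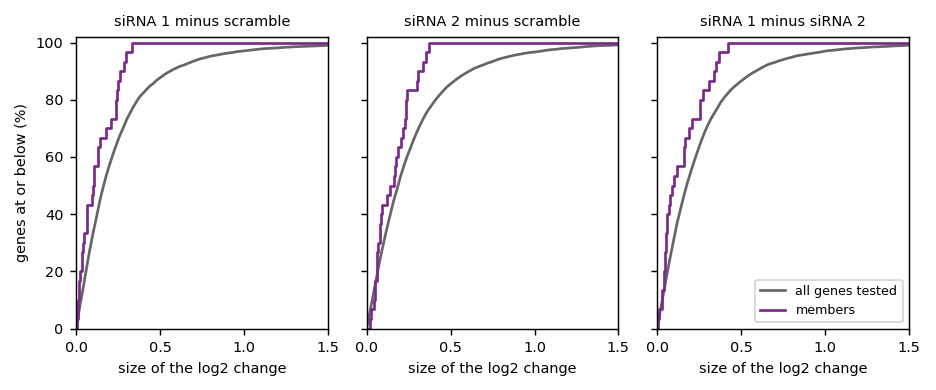
The percentage of genes (y axis) at or below each size of the log2 difference, whatever its sign (x axis). Curves are given for all 12735 genes tested and for the 30 measured members. The panels show siRNA 1 minus scramble, siRNA 2 minus scramble and siRNA 1 minus siRNA 2. The median size was 0.10, 0.15 and 0.09 for the members and 0.16, 0.19 and 0.18 for all genes.

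Other probe sets of the same genes give a further reading of each transcript. The members had 71 single-symbol probe sets, of which 61 passed the filter, so 18 genes had 31 beyond the brightest. When all 23975 probe sets that passed were fitted together, a setting added after the data were seen, 0 of the 61 were called with siRNA 1, with siRNA 2 or between the siRNAs, beside 0%, 0.00417% and 0% of all. At an unadjusted limma p under 0.05 were 9, 6 and 10 of the 61 (14.8%, 9.84% and 16.4%), beside 13.7%, 18% and 16.2% of all. Of the 31, 18 had the sign of the brightest with siRNA 1, 13 with siRNA 2 and 14 between the siRNAs.

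For ATM the 3 of its 6 probe sets above the filter had one sign within each comparison. They differed by -0.26, -0.18 and -0.20 with siRNA 1 and by 0.16, 0.31 and 0.19 with siRNA 2. The second gave 709 and 697 on the scramble arrays, 657 and 589 for siRNA 1 and 937 and 806 for siRNA 2, again with the siRNA 1 arrays lowest. CHEK1 had 3 further probe sets, at -0.13, -0.37 and 0.19 with siRNA 1 and at 0.20, -0.22 and 0.24 with siRNA 2. The interval of the second with siRNA 1, -0.71 to -0.02 (limma adjusted p = 0.347), includes a 1.5-fold difference, unlike that of the brightest. For both BRCA1 probe sets the differences were below 0, at -0.24 and -0.18 with siRNA 1 and -0.08 and -0.16 with siRNA 2.

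Other genes had probe sets that differed from each other. One of NBN gave 1354 and 1275 on the scramble arrays, 987 and 1193 for siRNA 1 and 739 and 776 for siRNA 2, a difference of -0.79 with siRNA 2 (limma adjusted p = 0.104), while the brightest was at 0.09. One of TP53BP1 was at 0.56 and 0.40 with siRNA 1 and siRNA 2, while the brightest was at -0.01 and -0.06. Dim probe sets reached furthest, at 0.74 and 0.80 for BRIP1 (88.2 and 86.2 with scramble) and at -1.17 with siRNA 1 for MRE11 (150 and 124 with scramble).

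**Figure D4:**
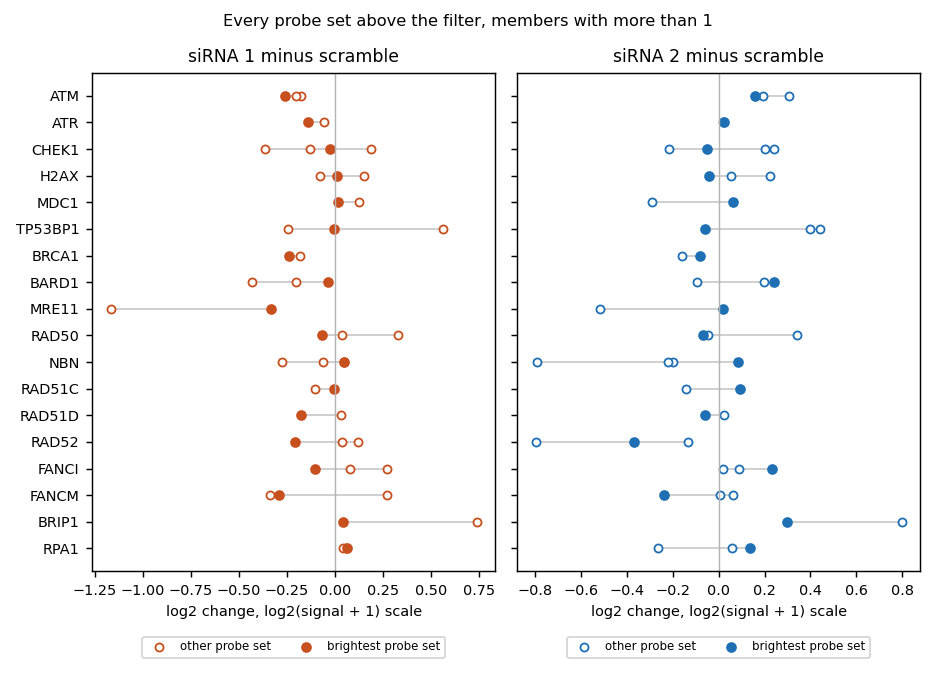
The log2 difference from scramble (x axis) of every probe set above the filter, for the 18 members with more than 1 (y axis), with the brightest filled, for siRNA 1 (left) and siRNA 2 (right). The probe sets of ATM stay on 1 side of 0 in each panel, while those of NBN, TP53BP1 and FANCM lie on both sides in at least 1 panel.

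Genes that work beside the members were read from 5 further lists. Of 15 Fanconi core and partner genes tested, 0 were called, at medians of 0.06 with siRNA 1 and 0.07 with siRNA 2, and at an unadjusted limma p under 0.05 there were 0 and 4 (0% and 26.7%, beside 16.2% and 20.8% of all genes). The largest differences were 0.33 for FAAP20 with siRNA 1 (adjusted p = 0.498) and 0.49 for WDR48, a cofactor of the deubiquitinase of FANCI, with siRNA 2 (adjusted p = 0.0814). Of 15 end joining genes 0 were called, at medians of -0.04 and -0.04 (0 and 1 at an unadjusted p under 0.05, 0% and 6.67%). The largest were -0.63 for POLL, a repair polymerase, with siRNA 1 (adjusted p = 0.762) and 0.52 for XRCC4, a ligase cofactor, with siRNA 2 (adjusted p = 0.0814).

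Among 25 other recombination genes tested, 1 was called with siRNA 1 and 0 with siRNA 2, at medians of -0.06 and -0.03, and 2 (8%) were at an unadjusted limma p under 0.05 with each. RMI2, a partner of BLM in dissolving joint molecules, gave 2364 and 2467 on the scramble arrays, 1302 and 1288 for siRNA 1 and 2715 and 2488 for siRNA 2. It fell by 0.90 on the log2 scale with siRNA 1 (95% interval -1.12 to -0.67, adjusted p = 0.0498), and was at 0.11 with siRNA 2 (adjusted p = 0.547). The difference between the siRNAs was -1.005 (adjusted p = 0.0522). The call lies at the threshold and was lost in 12 of 15 other settings, with differences of -0.93 to -0.87 and adjusted p of 0.000245 to 0.241. With siRNA 2 the largest difference in this list was -0.47 for SWSAP1 (adjusted p = 0.320).

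Of 20 checkpoint clamp and mediator genes tested 0 were called, at medians of -0.05 and 0.03, and 2 (10%) were at an unadjusted limma p under 0.05 with each siRNA. WEE1, the kinase that holds back entry into mitosis, gave 4590.2 and 4633 on the scramble arrays, 4782 and 4208 for siRNA 1 and 2706 and 2411 for siRNA 2. Both siRNA 2 arrays were far below the others, at -0.85 (95% interval -1.14 to -0.57, adjusted p = 0.0567), short of a call. With siRNA 1 the largest difference of this list was -0.51 for ETAA1, an activator of ATR (adjusted p = 0.363). Of 18 genes of break ubiquitin signalling 0 were called, at medians of 0.04 and 0.14, and 4 and 3 (22.2% and 16.7%) were at an unadjusted p under 0.05. UBE2N, a ubiquitin-conjugating enzyme, was at -0.92 with siRNA 1 (adjusted p = 0.0980) and RIF1, which limits resection, at 0.59 with siRNA 2 (adjusted p = 0.134).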

How the data were processed

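The authors deposited 1 linear intensity for each probe set on each of 6 arrays. Affymetrix Expression Console is named per the submitters' processing notes. Which algorithm it ran is not given in the sources used here. Trimming 2% from each tail gave every array a mean near 500.07, so whole-array shifts cannot be seen. Groups come from the sample titles, 1 of which spells the gene differently and was placed by its siRNA number.

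Signals were taken as log2(signal + 1). Probe sets with exactly 1 symbol in the platform table numbered 41097 of 54675. Genes were compared with limma 3.58.1 (lmFit, eBayes, R 4.3.3) in one model of the 3 groups, with 3 residual degrees of freedom, and p-values were adjusted by Benjamini-Hochberg. Few arrays limit the precision. Some probe sets can also bind related transcripts.

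The members, gene lists and roles were chosen with earlier results of these data known. By the naming rule, array values are given for ATM, ATR, CHEK1, CHEK2, BRCA1, H2AX and, in each comparison, the 6 members with the largest difference, in all 17 genes. From each further list the text names called genes and the largest difference. Probe sets beyond the brightest, XRCC3 and LUM values were chosen after seeing them. The 15 other settings changed scaling, pseudocount, filter, probe set choice, prior variance, pairing or the arrays kept. Fitting every probe set was added after seeing the data. Promoter letters come from the RefSeq table. Figures were drawn with matplotlib 3.10.9.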

Additional observations from a re-analysis of the deposited data

Results flagged for a closer look

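For 4 of 30 members every siRNA 1 array lay on one side of both scramble arrays and every siRNA 2 array on the other, against 6.49% of all genes tested (826 of 12735). In each case siRNA 1 was the lower. The 4 were picked by this order, which already sets the siRNA 1 arrays apart from the siRNA 2 arrays. The limma p-values of that comparison are therefore descriptive here. The difference of siRNA 1 minus siRNA 2 in limma was -0.42 for ATM (95% interval -0.68 to -0.17, adjusted p = 0.137). For FANCI it was -0.34 (-0.57 to -0.11, adjusted p = 0.162), and for RPA3 -0.31 (-0.56 to -0.06, adjusted p = 0.199). ATR had the smallest, -0.17 (-0.44 to 0.11, adjusted p = 0.467). None was called. With limma's prior variance allowed to follow intensity the adjusted p was 0.0499 for ATM, 0.0201 for FANCI and 0.0349 for RPA3, each under 1.5-fold. ATM had the same order of groups on the 3 of its 6 probe sets above the filter, except for 1 siRNA 1 array of the dimmest of these, at 237 against 225 and 215 with scramble. The 2 further probe sets of FANCI were of the opposite sign between the siRNAs, at 0.05 and 0.18, and 1 of them was at 0.27 with siRNA 1. The second probe set of ATR was at -0.08 between the siRNAs, with arrays that overlapped scramble. RPA3 had 1 probe set.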

How the results depend on the processing

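The count of members called was 0 in all 3 comparisons with every probe set fitted and under each other setting that kept all 6 arrays. Without the filter, with the mean of probe sets and with the array letter as a block, 0 of all genes were called. A member count of 0 was thus fixed there. Between the siRNAs this held with centred arrays too. With every probe set fitted, 0, 1 and 0 of all 23975 probe sets were called. Of 1344 member values under the 15 other settings, 2 turned sign where the unadjusted limma p had been under 0.05, and another 73 where it had not. Both of the 2 were of FANCM with siRNA 2, at 0.34 averaging a gene's probe sets and at 0.0056 with the brightest without an _s_at or _x_at suffix. The average takes in a probe set above the median on 0 arrays, at 1.54. With an intensity trend, 5 adjusted p-values were under 0.05 below 1.5-fold, including RAD51AP1 (0.0340) and RPA2 (0.0450) with siRNA 2.

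Counts at an unadjusted limma p under 0.05 for siRNA 1, siRNA 2 and their difference were reported as 4, 5 and 5. With arrays centred on their median they were 0, 1 and 2 (0%, 3.33% and 6.67%, beside 11.1%, 15% and 13.3% of all genes). With the mean of probe sets they were 2, 3 and 3 (6.67%, 10% and 10%, beside 12.2%, 15.4% and 13.3%). Without the filter they were 2, 2 and 4 (6.67%, 6.67% and 13.3%, beside 10.4%, 12.8% and 11.7% of all genes). With the suffix rule they were 1, 2 and 4 of 29 (3.45%, 6.9% and 13.8%, beside 15.3%, 20% and 17.8%). The intensity trend gave 9 for the difference (30%, beside 22% of all genes). Leaving out 1 array gave 0 to 4, 0 to 3 and 2 to 5. Member medians without 1 array ran from -0.088 to -0.046, from -0.045 to 0.0039 and from -0.106 to -0.018, and the siRNA 2 median was 0.0124 with the mean of probe sets. The cause was not tested.

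Arrays of 1 letter did not deviate together (r = -0.03, 0.01 and 0.04 between groups), so the letters share only a name. With the letter as a replicate block, the unadjusted counts were 2 with siRNA 1, 2 with siRNA 2 and 6 between them (6.67%, 6.67% and 20%). All genes gave 15.1%, 19.5% and 17.6%, and 0 genes of all were called in each comparison. With 2 arrays a group, the unadjusted 95% intervals of members reached a median of about 0.27 to each side on the log2 scale. A call asked for more. Outside the members, WEE1 at -0.85 with siRNA 2 was not called (limma adjusted p = 0.0567), and RMI2 at -0.90 with siRNA 1 only just was (adjusted p = 0.0498). The count of 0 members called does not by itself set aside differences of 0.27.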

Other observations

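Genes that act downstream of damage signalling and in the cell cycle were read from 3 further lists. Of 21 p53 target genes tested 0 were called, at medians of 0.02 with siRNA 1 and -0.13 with siRNA 2, and at an unadjusted limma p under 0.05 there were 2 higher and 3 lower with siRNA 1 (23.8%, beside 16.2% of all genes) and 2 higher and 6 lower with siRNA 2 (38.1%, beside 20.8% of all genes). SESN2, a stress-induced inhibitor of mTORC1, gave signals of 292 and 302 on the scramble arrays, 524 and 424 for siRNA 1 and 427 and 391 for siRNA 2. All 4 knockdown arrays were above scramble, at 0.66 (adjusted p = 0.133) and 0.46 (adjusted p = 0.155). CDKN1A, the cyclin-dependent kinase inhibitor p21, gave 2825 and 2992, then 3725 and 3659 with siRNA 1, and 3886 and 4300 with siRNA 2, also above scramble throughout, at 0.34 (adjusted p = 0.201) and 0.49 (adjusted p = 0.0846).

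Of 26 S phase genes tested 0 were called, at medians of -0.06 and -0.03, with 2 (7.69%) at an unadjusted limma p under 0.05 with each siRNA. The largest differences were -0.41 for CHAF1B, a histone chaperone subunit, with siRNA 1 (adjusted p = 0.277) and 0.47 for CDT1, a replication licensing factor, with siRNA 2 (adjusted p = 0.421). Of 25 G2/M genes 0 were called, at medians of 0.03 and -0.02, with 1 (4%) at an unadjusted p under 0.05 for each siRNA. The largest were -0.24 for AURKB, a mitotic kinase, with siRNA 1 (adjusted p = 0.376) and 0.26 for NDC80, a kinetochore protein, with siRNA 2 (adjusted p = 0.158). Of the tested markers of urothelial and epithelial cells (13) and of other cell types (6), 0 were called, at medians of -0.08 and -0.27 and of 0.02 and -0.36 with siRNA 1 and siRNA 2. At an unadjusted p under 0.05 there were 1 (7.69%) and 6 (46.2%) of the first, all lower, and 1 higher and 1 lower (16.7% each) of the second, beside 16.2% and 20.8% of all genes. The largest differences were -0.69 for UPK1B, a uroplakin, with siRNA 1 (adjusted p = 0.0657), -1.29 for KRT20, a keratin, with siRNA 2 (adjusted p = 0.460), 1.47 for CD3E, a T cell receptor subunit, with siRNA 1 (adjusted p = 0.479) and -0.77 for DCN, a matrix proteoglycan, with siRNA 2 (adjusted p = 0.354).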
